A study of Homo sapiens with 8 samples.

Results

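The genes described here are 45 genes of mitosis. They encode the kinases, cyclins and phosphatases of mitotic entry, the spindle assembly checkpoint, the chromosomal passenger complex, the kinetochore, and the motors and scaffold proteins of the spindle and of cytokinesis. They were taken by gene symbol for their role in mitosis, and all 45 were found among the 25369 genes of the deposited tables of counts and of FPKM (fragments scaled to gene length and library size). All 45 were among the 14570 genes that passed a filter on low counts, and the lowest count of any of them in any library was 613. The libraries came from LX-2 cells of wild type genotype, an immortalized line of human hepatic stellate cells (HSCs), the liver cells that turn into matrix-producing myofibroblasts in fibrosis. The cells grew on polyacrylamide hydrogels coated with fibronectin, of 2 kPa (soft matrix) or 40 kPa (stiff matrix) for 2 or 4 days. Each of the 4 conditions had 2 libraries, 8 in all, and no condition received a further agent or genetic change. All values come from 1 cell line, and the study's methods and legends describe the 2 libraries of a condition as biological replicates from independent experiments. The labels do not say which libraries were made together, and the p-values measure the spread between these libraries.

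Mitosis begins when CDK1 bound to cyclin B phosphorylates the proteins that condense the chromosomes and build the spindle. Kinetochores then tie each chromosome to spindle microtubules, and the spindle assembly checkpoint holds back the anaphase-promoting complex (APC/C) until all chromosomes are attached. Once released, the APC/C with CDC20 marks securin and cyclin B for breakdown, the sister chromatids part and the cell divides. Most of these genes are transcribed in G2 and M phase, under factors such as FOXM1 and the MuvB complexes, and quiescent HSCs of a healthy liver rarely divide, whereas activated HSCs proliferate.

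The libraries held between 19955975 and 27263935 counts on genes. Together, the 45 genes took between 0.922% and 1.18% of the counts of a library. Replicates of the stiff matrix at day 4 stood apart: the median size of the log2 ratio between the pair was 0.46 over the 45 genes, against 0.11 and 0.082 for the soft and the stiff pair at day 2 and 0.20 for the soft pair at day 4. The ratio of this pair was over 0.5 in size in 20 of the 45 genes, and in 0 of 45 in each other pair. Over all genes, the median size was 0.47 for this pair, close to that of the 45 genes. It was 0.14 and 0.094 for the soft and the stiff pair at day 2, and 0.21 for the soft pair at day 4. How many of all genes were over 0.5 was not counted. The stellate and mesenchymal genes COL1A1, VIM and SPARC were at 504 to 1021, 1966 to 6360 and 434 to 800.0 CPM (counts scaled to library size, normalized by TMM). COL5A1 and TIMP1 were at 105 to 385 and 161 to 315 CPM. Others of the same list were low, with COL1A2 at 2.13 to 4.06 and COL3A1 at 5.29 to 40.9 CPM. ACTA2 lay at 8.02 to 19.4 and PDGFRB at 10.9 to 24.7 CPM, while LUM stayed under 1 CPM. VIM, SPARC and ACTA2 were higher and COL5A1 was lower at day 4 on both matrices. Of 7 hepatocyte markers, 6 stayed under 1 CPM in every library and SERPINA1 lay at 4.37 to 10.3 CPM. The 4 endothelial and 3 epithelial markers stayed under 1 CPM, and among immune markers CD3E was at 0 while CD68 lay at 83.8 to 119 CPM. The immune marker PTPRC, at 0.503 to 2.89 CPM, was higher at day 4 on both matrices, by 2.06 and 1.56 on the log2 scale, and the part of any of these markers in the results was not tested. In bulk libraries, fewer cells in mitosis and less RNA per cell cannot be told apart.

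Levels of the 45 genes can be compared per length. The mean FPKM over the 8 libraries was highest for CCNB1, which encodes cyclin B1, at 254 FPKM (range 217 to 324). UBE2C, the ubiquitin-conjugating enzyme that works with the APC/C, followed at 193 FPKM (range 165 to 268). PTTG1, which encodes securin, the inhibitor of separase, had 185 FPKM (range 109 to 397), and CDC20, the APC/C activator, had 168 FPKM (range 124 to 216). CCNB1 was above UBE2C in 8 of 8 libraries. UBE2C was above PTTG1 in 6 of 8 and PTTG1 above CDC20 in 4 of 8, so that the order among these 3 was not the same in every library. At the low end were the kinetochore motor CENPE at 11.2 FPKM and the kinesins KIF18A and KIF14 at 11.7 and 12.96 FPKM, again as means over the 8 libraries.

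**Figure D1:**
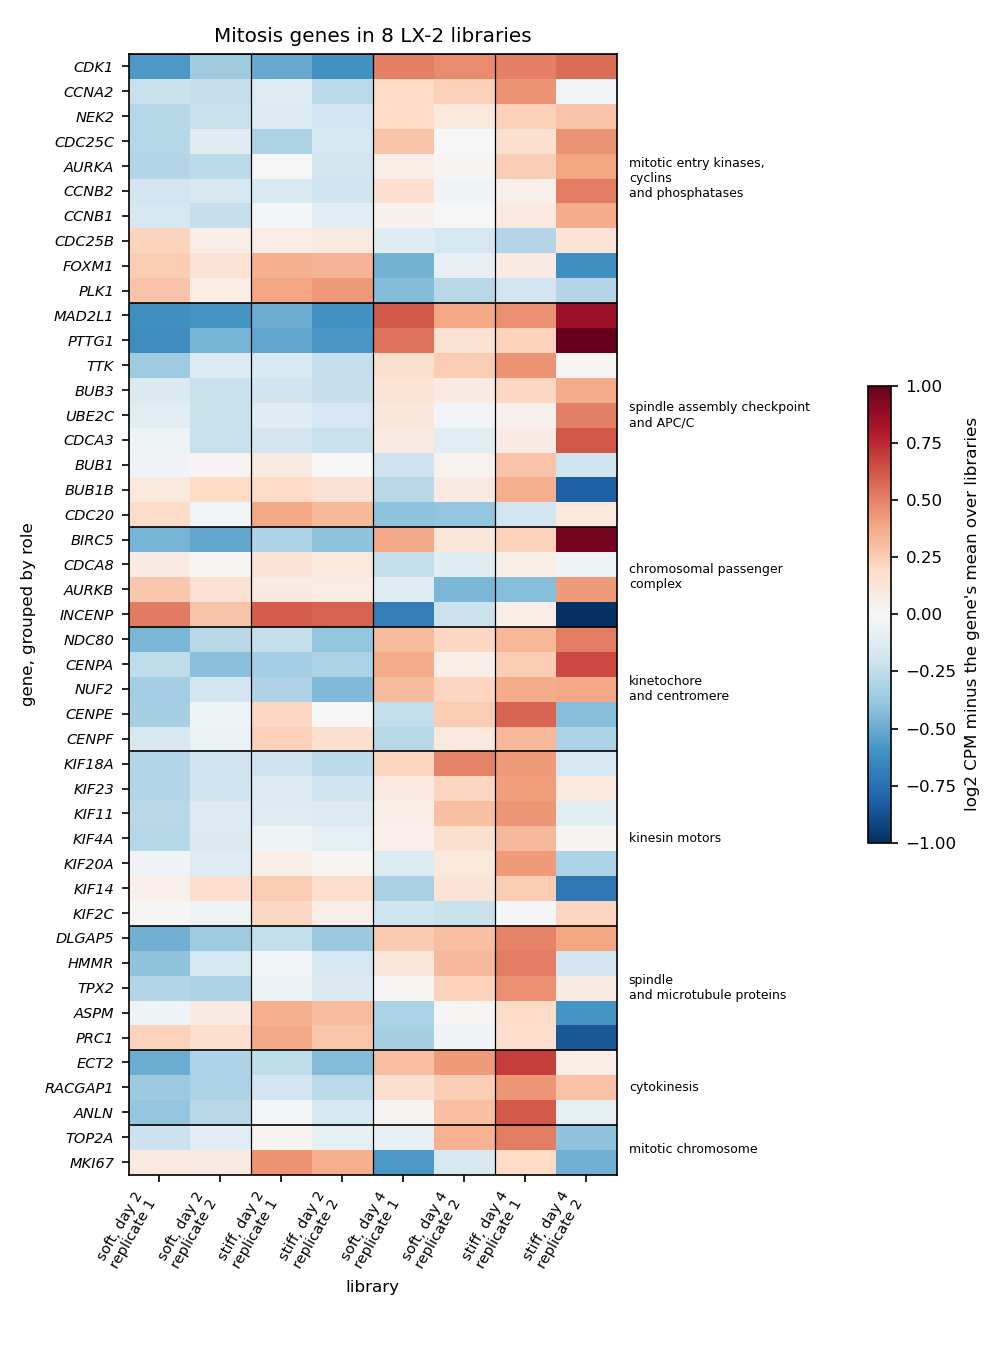
Expression of the 45 mitosis genes in each library, as log2 CPM minus the mean of the gene over the 8 libraries (colour; values beyond 1 or -1 are drawn at the end of the scale). Columns are the libraries by matrix, day and replicate, rows are genes grouped by role. CDK1, MAD2L1, NDC80 and DLGAP5 are below their mean in all day 2 libraries and above it in all day 4 libraries, INCENP and PRC1 are far below it in replicate 2 of the stiff matrix at day 4, and PTTG1 and BIRC5 are far above it there.

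The largest differences in these genes lay between the days. From day 2 to day 4, CDK1 rose 1.92-fold and 2.13-fold and the checkpoint gene MAD2L1 2.17-fold and 2.33-fold on soft and stiff matrix, the kinetochore genes NDC80 and NUF2 and the cytokinesis genes ECT2 and RACGAP1 rose less, and PLK1, a kinase of mitotic entry, fell. On the soft matrix, 9 of the 45 genes were higher and 2 were lower at day 4 (the quasi-likelihood test of edgeR with Benjamini-Hochberg adjustment, adjusted p under 0.05, with the 4 conditions in one fit). Of all genes tested, 14.1% were higher and 13.3% were lower in this comparison. On the stiff matrix, 13 of the 45 were higher and 1 was lower, where 14.0% and 13.7% of all genes were. With the stiff libraries fitted on their own, 0 of the 45 were called by edgeR, as were 0 of 14069 genes, while 13 of the 45 were higher and 1 was lower at an unadjusted p under 0.05. At an unadjusted p under 0.05, 17 were higher and 3 lower on soft matrix (21.2% and 19.8% of all genes, 41.0% in either direction), and 21 were higher and 4 lower on stiff matrix (21.6% and 19.8%, 41.4% in either direction). The 9 genes called higher on soft matrix (CDK1, NEK2, MAD2L1, BIRC5, NDC80, NUF2, DLGAP5, ECT2 and RACGAP1) were all called higher on stiff matrix too, while 10.3% of all genes were called higher on both. PLK1 was called lower on both (10.4% of all genes), and CDC20 on soft matrix.

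The whole list was not shifted evenly. The log2 fold change of day 4 over day 2 was above 0 in 31 of the 45 genes on each matrix, where 50.9% (soft) and 51.8% (stiff) of all genes were above 0. Its median over the 45 genes was 0.31 on soft and 0.39 on stiff matrix, against 0.016 and 0.028 over all genes. In a fit with the length and GC offsets described further on, it was 0.031 and 0.12, against 0.028 and 0.048 over all genes, so that the distance from the median of all genes went from 0.29 to 0.0029 on soft and from 0.36 to 0.072 on stiff matrix. The range ran from -0.84 (INCENP) to 1.11 (MAD2L1) on soft matrix and from -1.02 (INCENP) to 1.39 (PTTG1) on stiff matrix. Libraries of the days did not overlap in 27 higher and 11 lower genes on soft matrix (38.5% and 36.7% of all genes) and in 25 higher and 8 lower genes on stiff matrix (31.6% and 31.1%). In 24 of the 45 genes all day 4 libraries lay above all day 2 libraries of the same matrix, on both matrices (27.5% of all genes), and in 7 of the 45 all lay below (26.0%). Without scaling factors, 29 and 28 of the 45 genes were above 0, and the median of all genes moved by -0.077 on soft and -0.13 on stiff matrix.

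These counts changed with single libraries, and the share of all genes called changed with them. On the soft matrix they were 23 higher and 8 lower without replicate 1 of the stiff matrix at day 4 (26.1% and 26.8% of all genes), and 23 and 9 without its replicate 2 (25.4% and 27.3%), with all 9 and both of the original calls among them in the latter case. Without replicate 1 of the soft matrix at day 2 they were 0 and 0 (0.728% and 1.59%), and without its replicate 2 they were 2 and 0 (3.19% and 4.64%). Without replicate 1 or 2 of the soft matrix at day 4 they were 2 and 0 (3.22% and 3.55%, and 3.88% and 4.34%), and without replicate 1 or 2 of the stiff matrix at day 2 they were 4 and 0 (8.06% and 8.16%, and 8.03% and 8.17%). On the stiff matrix they were 19 and 11 without replicate 1 of day 4 (26.4% and 25.7%) and 26 and 5 without its replicate 2 (21.1% and 22.6%). They were 2 and 0 without replicate 1 of day 2 (2.18% and 3.57%) and 1 and 0 without its replicate 2 (1.1% and 2.04%). CDK1 on stiff matrix was the 1 call among these that passed in all 8 fits that left out 1 library.

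**Figure D2:**
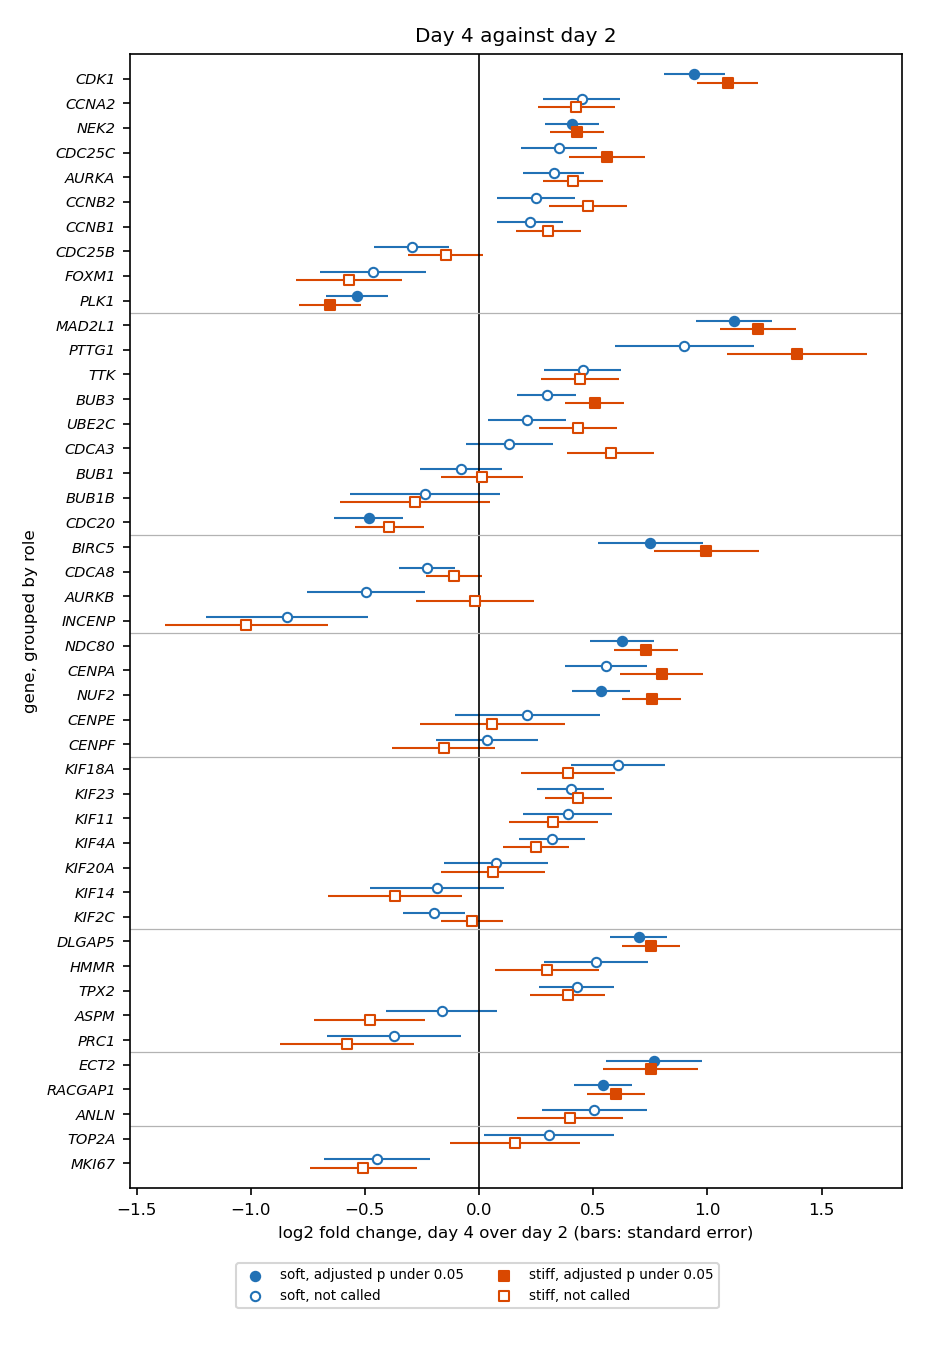
Log2 fold change of day 4 over day 2 for each of the 45 genes on soft matrix (circles) and the stiff matrix (squares), with bars of 1 standard error from the fit of all 8 libraries. Filled symbols passed an adjusted p under 0.05, which were 9 higher and 2 lower genes on soft and 13 higher and 1 lower gene on stiff matrix.

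Among the 10 kinases, cyclins, phosphatases and regulators of mitotic entry, 2 were higher and 1 was lower at day 4 on soft matrix, and 3 were higher and 1 was lower on stiff matrix. For this group and those that follow, the shares of all genes were 14.1% higher and 13.3% lower on soft matrix. On stiff matrix they were 14.0% and 13.7%. CDK1, the kinase that starts mitosis, lies on chromosome 10 from 62538089 to 62554610 (GRCh37). At day 2 it was at 137 and 160.0 CPM in the soft libraries and 144 and 134 CPM in the stiff libraries, and at day 4 at 289 and 283 CPM and 290.0 and 301 CPM. All 4 libraries of day 4 lay far above all 4 of day 2, with little spread between replicates. The log2 fold change was 0.94 on soft matrix (standard error 0.13, adjusted p = 0.00352, edgeR) and 1.09 on stiff matrix (standard error 0.13, adjusted p = 0.00242). CCNB1, which encodes its partner cyclin B1, did not pass. CCNB1 had 489 and 469 CPM on soft and 546 and 508 CPM on stiff matrix at day 2, and 567 and 551 CPM and 589 and 712 CPM at day 4. These day 4 libraries lay above those of day 2 on each matrix, but the log2 fold changes of 0.22 and 0.30 had adjusted p-values of 0.277 and 0.15 in the edgeR test. CCNB2 and CCNA2, which encode cyclins B2 and A2, had log2 fold changes of 0.25 and 0.45 on soft matrix and 0.48 and 0.43 on stiff matrix, and neither passed the cutoff.

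AURKA, the centrosomal kinase Aurora A, was at 223 and 229 CPM on soft matrix and 274 and 240.1 CPM on stiff matrix at day 2, and at 287 and 279 and 325 and 359 CPM at day 4. The libraries of the days did not overlap on either matrix, and the adjusted p-values were 0.103 (soft) and 0.0524 (stiff) in the edgeR test. NEK2, a centrosome-splitting kinase, rose by 0.41 on the log2 scale on soft matrix (adjusted p = 0.0389, edgeR) and by 0.43 on stiff matrix (adjusted p = 0.0334). CDC25C, a phosphatase that activates CDK1, was at 27.5 and 30.2 CPM at day 2 and 38.3 and 46.7 CPM at day 4 on stiff matrix, a log2 fold change of 0.56 with a standard error of 0.17 (adjusted p = 0.0412, edgeR). On the soft matrix CDC25C was at 28.1 and 31.4 CPM and then 41.7 and 34.2 CPM, which did not pass (adjusted p = 0.151, edgeR). Reads of CDC25C can fall on FAM53C, which overlaps its exons on the opposite strand.

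PLK1, the Polo-like kinase of centrosome maturation and cytokinesis on chromosome 16 from 23688977 to 23701688, changed in the other direction. It was at 229 and 197 CPM in the soft and 246 and 254 CPM in the stiff libraries of day 2, and at 139 and 155 CPM and 165 and 153 CPM at day 4. All libraries of day 4 lay below all of day 2. PLK1 fell by 0.54 on the log2 scale on soft matrix (standard error 0.14, adjusted p = 0.0239, edgeR) and by 0.65 on stiff matrix (standard error 0.14, adjusted p = 0.0125). FOXM1, a transcription factor that activates many G2 and M phase genes, PLK1 among them, had log2 fold changes of -0.46 and -0.57 on soft and stiff matrix, with adjusted p-values of 0.173 and 0.106. CDC25B, a further CDK phosphatase, had log2 fold changes of -0.29 and -0.15 and did not pass on either matrix. PLK1 overlaps exons of ERN2, and FOXM1 those of ITFG2, on the opposite strand.

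Among the 9 genes of the spindle assembly checkpoint and of APC/C control, MAD2L1 had the smallest p between the days. On soft matrix 1 of the 9 was higher and 1 lower, and on stiff matrix 3 were higher. MAD2L1 encodes the checkpoint protein MAD2, which holds CDC20 away from its substrates, and lies on chromosome 4 from 120976778 to 120988013. It was at 71.7 and 72.4 CPM on soft and 77.6 and 72.0 CPM on stiff matrix at day 2, and at 169 and 143 CPM and 151 and 198 CPM at day 4. Every day 4 library lay far above every day 2 library. The log2 fold change was 1.11 on soft matrix (standard error 0.17, adjusted p = 0.00425, edgeR) and 1.22 on stiff matrix (standard error 0.17, adjusted p = 0.00326). The pseudogene MAD2L1P1 is named after it, and how the counting treated reads that fit near-identical copies is not given.

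CDC20, the target of MAD2 on chromosome 1 from 43824652 to 43828874, went the other way. It was at 317 and 272 CPM on soft and 363 and 348 CPM on stiff matrix at day 2, and at 209.8 and 211 CPM and 243 and 298 CPM at day 4. On each matrix both libraries of day 4 lay below both of day 2, although the stiff libraries of day 4 overlapped the soft ones of day 2. CDC20 fell by 0.48 on the log2 scale on soft matrix (standard error 0.15, adjusted p = 0.0473, edgeR), and its log2 fold change of -0.39 on stiff matrix had an adjusted p of 0.0879. Per length, MAD2L1 was at 50.1 FPKM against 176 FPKM of CDC20 on soft matrix at day 2, and at 107 against 124 FPKM at day 4 (means of 2 libraries). CDC20 has 1 pseudogene named after it.

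PTTG1 had 127 and 141 CPM on soft and 135 and 129.8 CPM on stiff matrix at day 2, and 283 and 216 CPM and 228 and 467 CPM at day 4. The rise was seen in every library, but replicate 2 of the stiff matrix at day 4 stood far above replicate 1. PTTG2 and PTTG3P are close copies of PTTG1, and how reads that fit more than 1 of them were counted is not given. The log2 fold change was 1.39 on stiff matrix (standard error 0.31, adjusted p = 0.0153, edgeR), and 0.90 on soft matrix, where it missed the cutoff (adjusted p = 0.0621). BUB3, a checkpoint scaffold, was at 309.7 and 303 CPM at day 2 and 410.1 and 460.0 CPM at day 4 on stiff matrix, a log2 fold change of 0.51 (adjusted p = 0.0242, edgeR), and at 321 and 305 and then 392 and 377 CPM on soft matrix (adjusted p = 0.122). UBE2C was at 223 and 207 and 222 and 215 CPM at day 2 and at 261 and 236 and 248 and 342 CPM at day 4, on soft and stiff matrix, and did not pass (adjusted p = 0.393 and 0.0956, edgeR). UBE2C has 5 pseudogenes named after it, so its level is uncertain. The checkpoint kinases TTK and BUB1, the checkpoint protein BUB1B and CDCA3, an adaptor of a ubiquitin ligase for WEE1, did not pass on either matrix, with log2 fold changes on soft matrix of 0.45, -0.08, -0.24 and 0.13.

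Of the 4 members of the chromosomal passenger complex, which corrects faulty attachments at the centromere, 1 was higher on both matrices and the others did not pass. BIRC5, which encodes survivin, lies on chromosome 17 from 76210267 to 76221717. It was at 217 and 208 CPM on soft and 241 and 226 CPM on stiff matrix at day 2, and at 389.5 and 326 CPM and 352 and 580.0 CPM at day 4. All day 4 libraries lay above all day 2 libraries. BIRC5 rose by 0.75 on the log2 scale on soft matrix (standard error 0.23, adjusted p = 0.0443, edgeR) and by 0.99 on stiff matrix (standard error 0.23, adjusted p = 0.0179). INCENP, the scaffold that holds the complex together, was at 213 and 181 and 226 and 224 CPM on soft and stiff matrix at day 2, and at 91.8 and 128 and 156 and 66.3 CPM at day 4. Its libraries of day 4 lay below those of day 2, but replicate 2 of the stiff matrix lay far below replicate 1, and the log2 fold changes of -0.84 and -1.02 had adjusted p-values of 0.114 and 0.0676 (edgeR). AURKB, the kinase of the complex, and CDCA8, which encodes borealin, had log2 fold changes of -0.49 and -0.23 on soft matrix and -0.018 and -0.11 on stiff matrix, and did not pass.

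Of the 5 genes of the kinetochore and centromere, 2 were higher at day 4 on soft matrix and 3 on stiff matrix. NDC80 and NUF2 encode partners in the complex that grips the microtubule end. NDC80 (chromosome 18 from 2571556 to 2616634) was at 126 and 143 CPM on soft and 147 and 133 CPM on stiff matrix at day 2, and at 215 and 199.9 CPM and 217 and 246 CPM at day 4. NUF2 (chromosome 1 from 163236366 to 163325554) was at 80.7 and 90.2 and 83.0 and 75.7 CPM, and then at 128 and 119 and 133 and 135 CPM. In both genes every day 4 library lay above every day 2 library. NDC80 rose by 0.63 on the log2 scale on soft matrix (adjusted p = 0.0155, edgeR) and by 0.73 on stiff matrix (adjusted p = 0.00935), and NUF2 rose by 0.53 (adjusted p = 0.02) and 0.76 (adjusted p = 0.00653). The standard errors were between 0.13 and 0.14. CENPA, the histone H3 variant of the centromere, rose on stiff matrix from 45.6 and 46.2 CPM to 68.7 and 91.2 CPM (log2 fold change 0.80, adjusted p = 0.0166, edgeR), and was at 48.4 and 43.1 and then 74.6 and 60.1 CPM on soft matrix, where it missed the cutoff (adjusted p = 0.054). CENPF, a large outer kinetochore protein, was at 272 and 291 and 359 and 339 CPM at day 2 and at 251 and 325 and 383 and 244 CPM at day 4 on soft and stiff matrix. Its replicates at day 4 straddled the day 2 values, and its log2 fold change on soft matrix was 0.034, or -0.043 without scaling factors. CENPE, a kinesin of the kinetochore, had log2 fold changes of 0.21 and 0.058 with standard errors of 0.32.

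None of the 7 kinesin motors passed the cutoff between the days by edgeR, although 2 (KIF18A and KIF23) had an unadjusted p under 0.05 on soft matrix and 1 (KIF23) on stiff matrix. KIF23, a motor of the central spindle, was at 233 and 248 CPM on soft and 259.8 and 248 CPM on stiff matrix at day 2, and at 304 and 331 and 379.8 and 306 CPM at day 4. The libraries of the days did not overlap, and the log2 fold changes of 0.40 and 0.43 had adjusted p-values of 0.0784 and 0.0612 (edgeR). KIF18A, which limits the length of kinetochore microtubules, was at 32.4 and 34.6 CPM on soft and 34.6 and 33.2 CPM on stiff matrix at day 2, and at 46.1 and 56.1 and 53.4 and 35.3 CPM at day 4, where the stiff replicates were far apart. KIF2C, which takes microtubules apart at the centromere, had log2 fold changes of -0.20 and -0.031. KIF11, the motor that pushes the spindle poles apart, had 0.39 and 0.33, and the chromosome-bound KIF4A had 0.32 and 0.25, as log2 fold changes on soft and stiff matrix. By DESeq2, the tool used in the study, 12 of the 45 genes were higher and 2 lower on soft matrix. On stiff matrix 16 were higher and 2 lower. Of 20029 genes, DESeq2 called 10.9% higher and 11.2% lower on soft matrix, and 11.1% and 11.1% on stiff matrix. These include genes below the filter on low counts, so the shares are not on the same footing as those of edgeR over 14570 genes.

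Of the 5 spindle and microtubule proteins, DLGAP5 passed on both matrices. DLGAP5, a protein that stabilizes spindle microtubules, was at 141 and 154 CPM on soft and 166 and 152 CPM on stiff matrix at day 2, and at 236 and 242 CPM and 278 and 259 CPM at day 4. It rose by 0.70 on the log2 scale on soft matrix (standard error 0.13, adjusted p = 0.00762, edgeR) and by 0.75 on stiff matrix (standard error 0.13, adjusted p = 0.00613). TPX2, the activator of AURKA at the spindle, was at 385 and 379.9 and 452 and 425 CPM at day 2 and 475 and 553 and 647 and 501 CPM at day 4 on soft and stiff matrix. Its libraries did not overlap between the days on either matrix, and its adjusted p-values were 0.0889 and 0.113 (edgeR). PRC1, which bundles the central spindle, and ASPM, a spindle pole protein, had log2 fold changes below 0 on both matrices (-0.37 and -0.58 for PRC1, -0.16 and -0.48 for ASPM), and HMMR, a further spindle protein, had 0.51 and 0.30. None of these 3 passed by edgeR.

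Of the 3 cytokinesis genes, RACGAP1 and ECT2 rose on both matrices. Their proteins bind each other and direct the GTPase RhoA to the cleavage furrow. RACGAP1 (chromosome 12 from 50370706 to 50426919) was at 205 and 212 CPM on soft and 232 and 219 CPM on stiff matrix at day 2, and at 296 and 313 CPM and 359.7 and 324 CPM at day 4. RACGAP1 rose by 0.54 (adjusted p = 0.0183, edgeR) and 0.60 (adjusted p = 0.0134) on the log2 scale, with standard errors of 0.13. ECT2 rose by 0.77 (adjusted p = 0.0308) and 0.75 (adjusted p = 0.033), with standard errors of 0.21. ANLN, the furrow scaffold anillin, was at 403 and 435 and 523 and 466 CPM at day 2 and at 538 and 651 and 808 and 496 CPM at day 4, and did not pass (adjusted p = 0.14 and 0.23, edgeR).

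TOP2A and MKI67, both proteins of mitotic chromosomes, did not pass in either direction. TOP2A, the topoisomerase that untangles sister chromatids, was at 643 and 697 CPM on soft and 760.3 and 704 CPM on stiff matrix at day 2, and at 706 and 953 and 1066 and 567 CPM at day 4. MKI67, which encodes the proliferation marker Ki-67, was at 437 and 434 and 557 and 526 CPM at day 2 and at 275 and 365 and 469 and 293 CPM at day 4. All MKI67 libraries of day 4 lay below those of day 2 on the same matrix, with log2 fold changes of -0.45 and -0.51 (adjusted p = 0.187 and 0.141, edgeR).

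**Figure D3:**
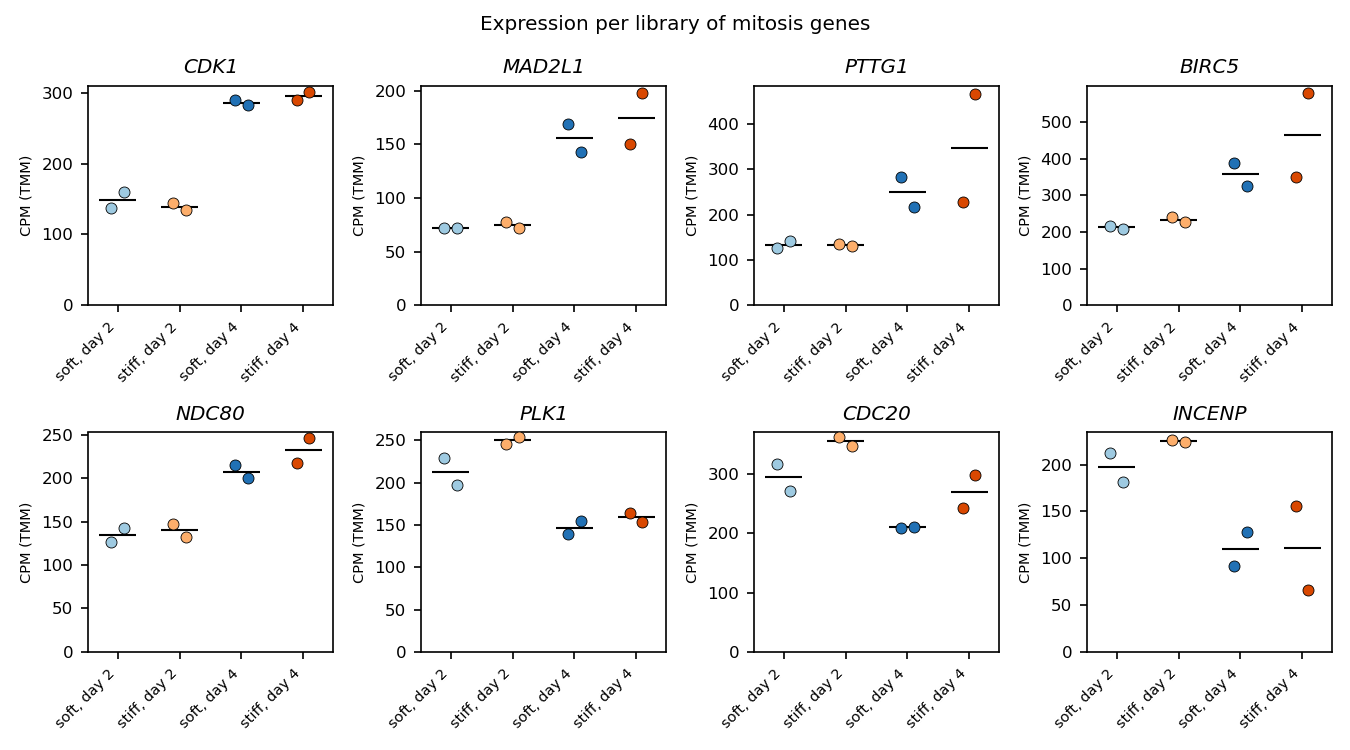
CPM of 8 of the genes in each library (points) by condition, with the mean of the 2 libraries as a bar and each axis from 0. CDK1, MAD2L1, PTTG1, BIRC5 and NDC80 are higher in every library of day 4, PLK1 is lower in every library of day 4, and the replicates of PTTG1, BIRC5 and INCENP are far apart on stiff matrix at day 4.

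Genes of mitosis outside the list were looked at in 4 further lists, 57 genes in all. Of these, 15 were higher and 6 were lower at day 4 on soft matrix and 15 were higher and 3 were lower on stiff matrix (edgeR, adjusted p under 0.05). Of all genes tested, 14.1% were higher and 13.3% lower on soft matrix, and 14.0% and 13.7% on stiff matrix. The kinetochore list held most of the rises: 9 of its 21 genes were higher and 1 was lower on soft matrix, and 12 were higher on stiff matrix. Its median log2 fold change was 0.41 on soft and 0.57 on stiff matrix, against 0.016 and 0.028 over all genes. SKA3 and SKA1, parts of the complex that follows shrinking microtubules, rose by 0.65 and 0.83 on soft matrix and by 0.96 and 0.83 on stiff matrix on the log2 scale. ZWINT and HJURP, the kinetochore genes of this list with the highest levels, had log2 fold changes of 0.13 and -0.025 on soft matrix and did not pass. Of 14 other spindle and cytokinesis genes, 1 (CKAP2, by 0.86 on the log2 scale) was higher and 3 were lower on soft matrix, and CKAP2 was higher (by 0.72) and 1 lower on stiff matrix. The kinesin KIF18B fell by 0.68 and 0.82, and TACC3, a spindle protein, had -0.20 and 0.022, on soft and stiff matrix.

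Of 13 other genes of mitotic entry, 5 were higher and 1 was lower on soft matrix and 2 were higher and 1 was lower on stiff matrix. The shares of all genes, here and for the lists below, were 14.1% higher and 13.3% lower on soft matrix. On stiff matrix they were 14.0% and 13.7%. The kinase PBK rose by 0.79 and 0.91, and PKMYT1, a kinase that inhibits CDK1, fell by 0.999 and 0.86 on soft and stiff matrix on the log2 scale. CKS2, a CDK-binding protein, and the transcription factor MYBL2 had 0.25 and -0.28 on soft matrix and did not pass. Among 9 condensin and sister chromatid genes, 0 were higher (and 0 at an unadjusted p under 0.05) and 1 was lower on each matrix by edgeR. This was ESPL1, which encodes separase, the protease that securin inhibits, and it fell by 0.92 and 0.90. The condensin genes NCAPD3, NCAPD2 and SMC4 had log2 fold changes of -0.21, 0.012 and 0.19 on soft matrix and did not pass. Of 13 APC/C core subunits and activators, 3 were higher and 2 were lower on soft matrix and 4 were higher and 2 lower on stiff matrix. The activator FZR1 fell by 0.85 and 0.71 and the catalytic subunit ANAPC2 by 1.09 and 0.78, whereas CDC27 and ANAPC5 did not pass.

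For comparison with an earlier step of the cell cycle, 20 genes of G1/S and replication were counted. Of these, 3 were higher and 2 were lower at day 4 on soft matrix and 8 were higher and 1 was lower on stiff matrix. Here too, 14.1% and 13.3% of all genes were higher and lower on soft matrix, and 14.0% and 13.7% on stiff matrix. GINS1 and MCM6, parts of the replicative helicase, rose by 1.06 and 0.69 on soft and 1.06 and 0.74 on stiff matrix on the log2 scale, while MCM7 and MCM4 did not pass. Of 12 CDK inhibitors and cell cycle exit genes, 1 (CDKN1B, which encodes p27) was higher on soft matrix, by 0.67. On the stiff matrix CDKN1B was higher by 0.61 and 1 gene was lower, CDKN1A, which encodes the inhibitor p21 and fell by 0.42 (adjusted p = 0.0431, edgeR). GADD45A and RB1 had log2 fold changes of 0.059 and 0.50 on soft matrix and did not pass.

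Many genes expressed in G2 and M phase share promoter elements, the cell cycle genes homology region (CHR) and CCAAT boxes. The RefSeq table of promoter windows, 250 bases before to 50 bases after the start of transcription, held a window for 37 of the 45 genes. Each of these 37 sequences matched the GRCh37 sequence in and around its own gene at 1 place, and the rest of the genome was not searched. A CHR (searched as TTTGAA or TTCGAA on both strands) was present in 27 of the 37 windows (73%), against 16.6% of all 27305 windows. From 60 bases before the start to the end of the window, it was present in 23 of the 37 (62.2%), against 5.46% of all. A CCAAT box (searched as CCAAT on both strands) was present in 29 of the 37 (78.4%), against 35.7% of all, and both motifs in 62.2%, against 6.58%. A CCAAT match can share an end letter with a CHR match, and TTCGAA reads the same on both strands. Of the genes with a window that were higher at day 4, a CHR was present in 6 of 7 on soft and in 7 of 10 on stiff matrix, and a CCAAT box in 5 of 7 and 7 of 10. The windows of 3 genes that rose on both matrices and of the 2 that were lower are shown, since they let the motifs be read in genes of both directions, in lower case with CHR and CCAAT matches in capitals, 5′ to 3′ on the strand of the gene. They are the windows of CDK1 (chr10:62537839-62538138, forward strand), MAD2L1 (chr4:120987954-120988253, reverse strand), NDC80 (chr18:2571306-2571605, forward strand), PLK1 (chr16:23689960-23690259, forward strand) and CDC20 (chr1:43824402-43824701, forward strand), with GRCh37 coordinates.
CDK1: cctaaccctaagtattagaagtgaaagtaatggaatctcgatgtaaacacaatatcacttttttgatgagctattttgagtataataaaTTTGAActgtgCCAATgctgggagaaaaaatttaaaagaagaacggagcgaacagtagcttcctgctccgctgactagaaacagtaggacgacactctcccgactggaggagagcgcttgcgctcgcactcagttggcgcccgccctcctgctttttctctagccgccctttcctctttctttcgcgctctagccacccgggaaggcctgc
MAD2L1: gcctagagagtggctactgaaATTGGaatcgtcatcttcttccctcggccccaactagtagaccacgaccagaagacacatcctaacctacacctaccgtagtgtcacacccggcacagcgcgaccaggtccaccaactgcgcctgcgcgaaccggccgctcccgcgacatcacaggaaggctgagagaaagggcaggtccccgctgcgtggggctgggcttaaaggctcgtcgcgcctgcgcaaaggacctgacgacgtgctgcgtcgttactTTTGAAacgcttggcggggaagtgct
NDC80: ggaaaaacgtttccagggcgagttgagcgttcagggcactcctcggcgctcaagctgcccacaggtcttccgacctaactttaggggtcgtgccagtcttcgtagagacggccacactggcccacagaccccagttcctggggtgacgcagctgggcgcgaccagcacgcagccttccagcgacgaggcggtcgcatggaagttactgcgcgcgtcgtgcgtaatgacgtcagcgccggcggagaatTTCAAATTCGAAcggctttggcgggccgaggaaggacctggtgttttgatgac
PLK1: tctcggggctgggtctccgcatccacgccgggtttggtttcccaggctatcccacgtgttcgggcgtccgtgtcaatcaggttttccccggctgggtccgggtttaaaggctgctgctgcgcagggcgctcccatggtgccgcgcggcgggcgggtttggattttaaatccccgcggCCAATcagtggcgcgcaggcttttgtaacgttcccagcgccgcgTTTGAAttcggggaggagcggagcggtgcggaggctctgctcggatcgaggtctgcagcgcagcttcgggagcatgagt
CDC20: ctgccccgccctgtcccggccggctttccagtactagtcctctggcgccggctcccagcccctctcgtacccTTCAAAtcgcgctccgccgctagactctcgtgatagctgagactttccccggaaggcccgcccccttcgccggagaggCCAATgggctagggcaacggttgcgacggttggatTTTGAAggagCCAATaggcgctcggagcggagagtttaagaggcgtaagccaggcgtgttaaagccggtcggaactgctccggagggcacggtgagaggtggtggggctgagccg

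In these windows, CDK1 had 1 CHR and 1 CCAAT match, which began 161 and 150 bases before the start. MAD2L1 had 1 CHR match from position 25 (the start being position 1) and 1 CCAAT match 229 bases before the start. NDC80 had 2 CHR matches, which began 3 bases before the start and at position 4, and no CCAAT match. PLK1 had 1 CHR match 29 bases and 1 CCAAT match 73 bases before the start, and CDC20 had 2 of each, the nearest a CCAAT match 55 bases and a CHR match 65 bases before the start. A match describes the letters of a window and not the binding of a factor, which these libraries do not measure.

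Between the matrices, none of the 45 genes passed the cutoff at either day. At day 2, 0 were called by edgeR, as were 0% of all genes, and 0 had an unadjusted p under 0.05 (2.82% of all genes, 1.04% higher and 1.78% lower), with 0 called and 0 at an unadjusted p under 0.05 by DESeq2 too. At day 4, 0 were called (0.0343% of all genes were higher and 0.213% were lower on stiff), also by DESeq2, and 2, CDC20 and KIF2C, had an unadjusted p under 0.05 by edgeR (6.93% of all genes, 2.61% higher and 4.32% lower), as had 2 genes by DESeq2. In the fit of all 8 libraries, the log2 fold changes leaned towards the stiff matrix. They were above 0 in 37 of the 45 genes at day 2 and 38 at day 4, against 51.7% and 53.4% of all genes, which became 26 at each day when no scaling factors were used. That setting moved the median of all genes by -0.067 at day 2 and by -0.115 at day 4. Relative to the median of all genes, the median of the 45 was 0.079 at day 2 and 0.11 at day 4 with TMM factors, and 0.079 and 0.13 without them. With 1 library left out, 30 to 38 of the 45 genes were above 0 at day 2 and 23 to 44 at day 4. At day 4 it was 23 without replicate 1 of the stiff matrix and 31 without replicate 1 of the soft matrix. In the former case the median of the 45 was 0.073, against -0.017 over all genes. The range was -0.14 (AURKB) to 0.31 (MKI67) at day 2 and -0.20 (KIF18A) to 0.48 (PTTG1) at day 4.

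All stiff libraries lay above all soft libraries in 24 of the 45 genes at day 2 (25.7% of all genes) and below in 1, AURKB (22.4%). AURKB was at 141 and 130.1 CPM on soft and 124 and 123 CPM on stiff matrix at day 2. At day 4 they lay above in 12 (11.7%) and below in 0 (14.0%). In 7 genes, AURKA, NEK2, CCNB1, CDC20, CDCA8, KIF2C and RACGAP1, the stiff libraries were higher at both days (4.79% of all genes). CDC20 had the smallest unadjusted p of the 45 at each day. With the values given above, its log2 fold change of stiff over soft was 0.27 at day 2 (95% interval -0.076 to 0.62) and 0.36 at day 4 (95% interval 0.014 to 0.71, adjusted p = 0.694, edgeR). KIF2C was at 182 and 175 CPM on soft and 208 and 188 CPM on stiff matrix at day 2, and at 157 and 154 and 178 and 209 CPM at day 4. Its log2 fold change was 0.15 at day 2 and 0.32 at day 4 (95% interval 0.0029 to 0.63, adjusted p = 0.71, edgeR). AURKA had log2 fold changes of 0.19 and 0.27 and RACGAP1 of 0.11 and 0.17, with intervals that included 0. The same held for MKI67 (0.31 and 0.25), CENPF (0.31 and 0.12), BIRC5 (0.14 and 0.38) and DLGAP5 (0.11 and 0.17).

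The precision of these comparisons was moderate. The half-width of the 95% interval had a median over the 45 genes of 0.39 at day 2 and 0.40 at day 4 on the log2 scale, and the interval lay within a log2 change of 1 in either direction in 43 and 44 of the 45 genes. These widths rest on a spread per gene that the 4 conditions share, and not on the libraries compared alone. The median size of the replicate log2 ratio was 0.46 for the stiff pair at day 4, against 0.082 for that at day 2. The widths do not show this difference. The widest upper bounds were 1.02 (CENPE, day 2) and 1.18 (PTTG1, day 4). Differences well below this half-width were not detectable with 2 libraries per condition. Without replicate 1 of the stiff matrix at day 4, 11 of the 45 genes were called higher and 8 lower on stiff matrix at day 4 (16.5% and 14.6% of all genes), and without its replicate 2, 1 was called higher and 0 lower (1.82% and 1.81%). In each case the remaining stiff library was assumed to vary like those of the other conditions. With the day 2 libraries fitted on their own, 3 of the 45 were called higher at day 2 (2.2% of all genes, with 2.47% lower).

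Whether the difference between matrices itself changed from day 2 to day 4 was tested with an interaction term, which called 0 of the 45 genes (0% of all genes), and 0 had an unadjusted p under 0.05 (1.95% of all genes, of which 0.776% higher and 1.17% lower, edgeR, and 0 of the 45 by DESeq2 too). The term was above 0 in 24 of the 45 genes (50.7% of all genes). The smallest unadjusted p was that of CDCA3, whose stiff over soft difference rose by 0.44 on the log2 scale (95% interval -0.18 to 1.06, adjusted p = 0.9997, edgeR). Without replicate 1 of the stiff matrix at day 4, 4 of the 45 were called higher and 9 lower (11.1% and 9.85% of all genes).

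**Figure D4:**
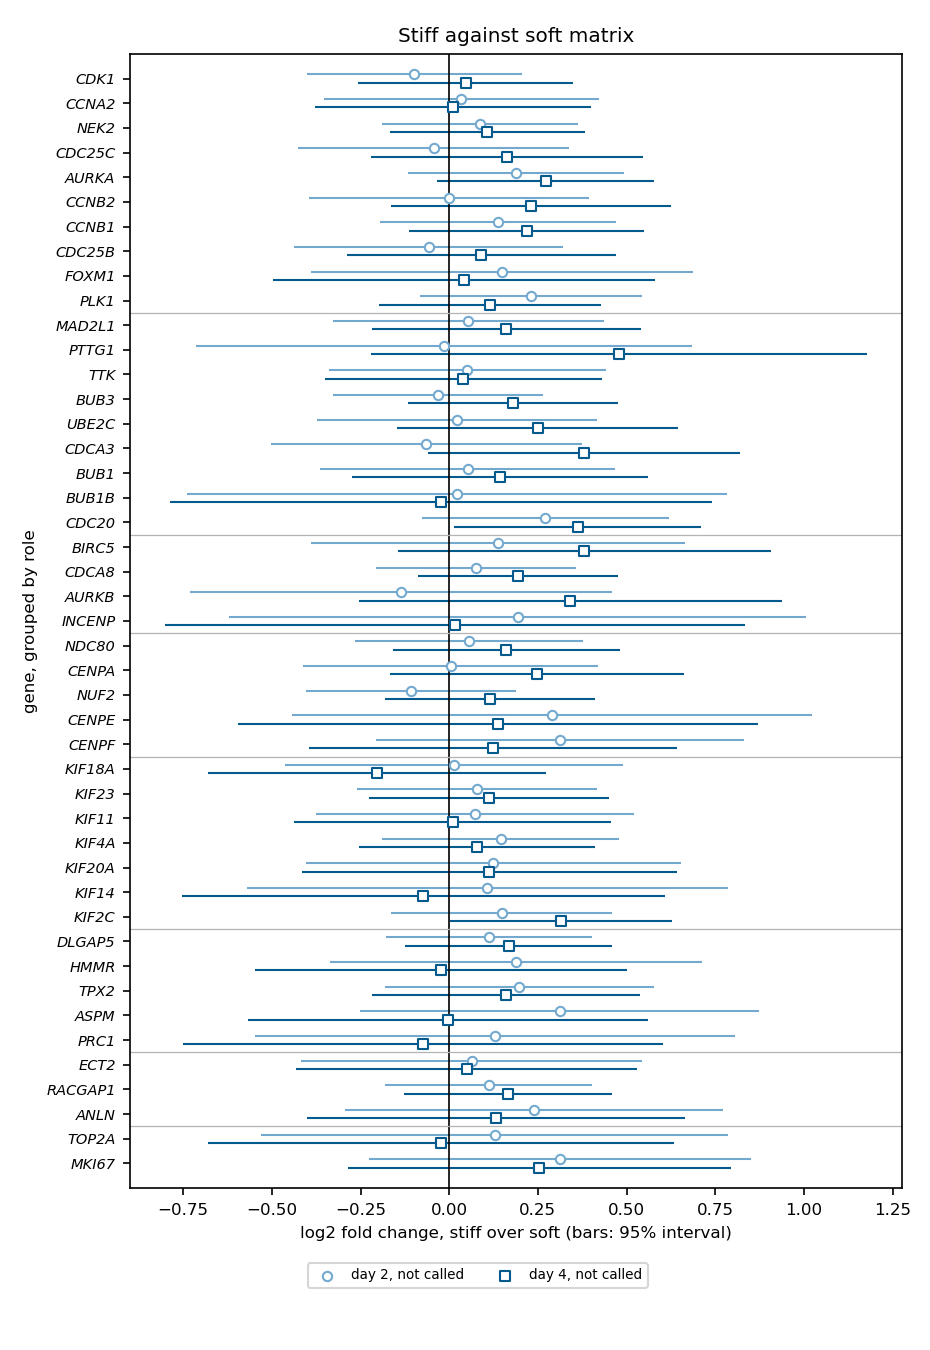
Log2 fold change of the stiff over the soft matrix for each of the 45 genes at day 2 (circles) and day 4 (squares), with 95% intervals from the fit of all 8 libraries. Open symbols were not called, which holds for all 45 genes at both days, and most points lie to the right of 0 (37 at day 2 and 38 at day 4).

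Gene length, taken as the exonic length that the deposited FPKM imply, and GC content moved with several of these values, and their part in the results was not tested other than by the offsets that follow. Over the 45 genes, the log2 ratio of the stiff replicates at day 4 had a Pearson r of -0.75 with log gene length, and that of the soft replicates at day 4 one of 0.81, against 0.38 and -0.21 for the soft and the stiff pair at day 2. These are correlations across genes that share the same libraries, and over all 14570 genes they were -0.41 and 0.30 at day 4. The extremes of the stiff pair were INCENP, with a log2 ratio of replicate 2 over replicate 1 of -1.23 at 4146 bp, and PTTG1, with 1.03 at 1160 bp. The interaction term had an r of -0.76 with log length over the 45 genes, against -0.24 over all genes. For the log2 fold change of stiff over soft, the r with log length was 0.60 at day 2 and -0.53 at day 4 over the 45 genes. Over all genes it was 0.13 and -0.16.

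The log2 fold change of day 4 over day 2 had a Pearson r of -0.62 with GC content over the 45 genes on soft matrix and -0.39 on stiff matrix, against -0.47 and -0.36 over the 14117 genes with a GC value. MAD2L1 has a GC content of 37.3%, PLK1 and CDC20 one of 57.1% and 56.9%. Not all of the 45 genes followed this relation. BIRC5, called higher on both matrices, has a GC content of 52.2%. ASPM and KIF14, at 37.1% and 38.3%, had log2 fold changes below 0 on both matrices. With offsets for length and GC content fitted per library, the median log2 fold change of the 45 genes was 0.031 on soft and 0.12 on stiff matrix, against 0.028 and 0.048 over all genes, and 24 and 25 of the 45 were above 0. These offsets were fitted to each gene's distance from its mean over the 8 libraries, without regard to condition. They cannot tell a bias of a library from a change between the days that goes with length or GC content. The direction turned in 9 of the 45 genes on soft matrix (CCNB1, CDC25B, TTK, CENPE, CENPF, KIF11, KIF18A, HMMR and TOP2A) and in 8 on stiff matrix (CCNB1, CDC25B, BUB1, TTK, CENPE, KIF18A, HMMR and TOP2A), of which 0 had been called by edgeR. TTK went from 0.45 and 0.44 to -0.15 and -0.083, HMMR from 0.51 and 0.30 to -0.10 and -0.23, and CDC25B from -0.29 and -0.15 to 0.12 and 0.31 on soft and stiff matrix. In that fit, 9 genes were higher and 3 were lower on soft matrix (15.2% and 13.1% of all genes). Of the 9 higher and 2 lower genes called on soft matrix without offsets, CDK1, MAD2L1, BIRC5 and RACGAP1 were among them, and NEK2, NDC80, NUF2, DLGAP5, ECT2, PLK1 and CDC20 were not. The 3 lower genes were BUB1, KIF14 and ASPM. On the stiff matrix 16 were higher and 3 lower with offsets (18% and 13.3% of all genes), and 11 of the 13 higher genes and PLK1 passed again. The log2 fold change of CDK1 was then 0.36 on soft and 0.62 on stiff matrix, that of MAD2L1 0.53 and 0.55, and that of BIRC5 0.84 and 1.07.

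**Figure D5:**
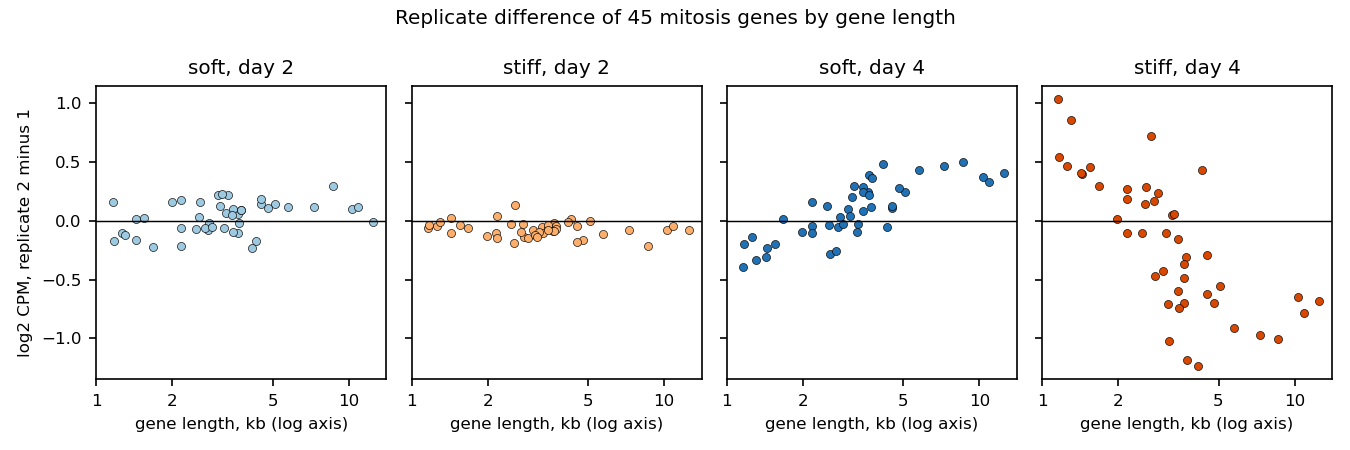
Log2 CPM of replicate 2 minus replicate 1 for the 45 genes (points) against gene length in kb (log axis), one panel per condition. At day 4 the points rise with length on soft matrix and fall with length on stiff matrix (Pearson r 0.81 and -0.75), while at day 2 they stay between -0.23 and 0.29.

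Summed over the 45 genes, expression was 8918 and 8967 CPM in the soft and 10061 and 9524 CPM in the stiff libraries at day 2, and 9813 and 10603 CPM in the soft and 12028 and 10592 CPM in the stiff libraries at day 4. At day 2 the stiff libraries lay above the soft ones, and at day 4 the libraries of the matrices overlapped. Ranked by the correlation with the mean profile of the 45 genes over the 8 libraries, the genes most alike among 12120 others were CALD1, which encodes the actin-binding caldesmon (Pearson r 0.995), GPR176 (0.994), RPP14 (0.989), ZNF45 (0.988) and RAD18 (0.985). These are the highest of 12120 correlations over only 8 libraries and serve as a description. Shared regulation was not tested.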

How the data were processed

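The authors sequenced RNA of LX-2 cells on an Illumina instrument. The submitters' processing notes name Trim Galore, STAR 2.7.1a, HTSeq, bedtools 2.24.0 and the hg19 build. The raw counts per gene and the FPKM values were both deposited by the authors, for 25369 genes. The strand setting of the counting and the annotation are not given in the sources used here, so the values are uncertain where exons overlap a gene of the opposite strand (14 of the 45 genes) or the same strand (3 of the 45), or where pseudogenes are named after the gene (13 of the 45). The deposited FPKM were scaled by size factors, and served for levels per length.

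Counts were tested with edgeR 4.0.16 (R 4.3.3, TMM, filterByExpr, quasi-likelihood test, 4 conditions in one fit, Benjamini-Hochberg adjustment over 14570 genes, cutoff 0.05). The script was tested on simulated data. DESeq2 1.42.0, the tool of the study, and limma 3.58.1 on log2 FPKM (pseudocount 1 or 0.1) were alternatives. Libraries held 19955975 to 27263935 counts. Groups came from the sample labels. The members, gene lists and tests were chosen with earlier results of these data known. Values per library are given, within each role, for the genes with the smallest p between days, the smallest p between matrices and the highest FPKM, and for further genes on which a small count or an extreme turns. In the other lists, the genes named have the smallest p or the highest levels. Members called in small counts were named after their values were seen. Promoter sequences are from RefSeq (table of GRCh38.p14) and were matched to GRCh37.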

Additional observations from a re-analysis of the deposited data

How the results depend on the processing

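The direction and the side of the cutoff of the counts and medians held in most of the alternatives, taken over all comparisons. These include the comparisons between matrices, in which most settings called none of these genes. Between the days on the soft matrix, the higher count changed with each library left out. Exceptions follow. The median of the change between days of the difference between matrices was 0.033, and -0.0091 without scaling factors. The comparison of the matrices at day 2 called 3 genes higher when the day 2 libraries were fitted on their own (2.2% of all genes). Between the days on the soft matrix, the counts were 21 higher and 7 lower with these libraries fitted on their own (24.7% and 25.9% of all genes). They were 23 and 8 with voom and sample quality weights (25% and 24.1%). The lower count was 1 without the filter on low counts (9.3% of 20029 genes) and 1 with limma on log2(FPKM + 0.1) (13.4% of 12374 genes). With length and GC offsets, the median was 0.031 on the soft and 0.12 on the stiff matrix. On the stiff matrix, the lower count was 2 with DESeq2 (11.1% of 20029 genes). It was 2 without scaling factors (15.9% of 14570 genes) and with the crossed block (15.7%). It was also 2 with voom (6.61%), and 3 with offsets (13.3%). The fit of the stiff libraries on their own called 0 higher and 0 lower (0% of all genes in each direction). In that fit, 13 were higher and 1 lower at an unadjusted p under 0.05 by edgeR. Offsets, voom weights and the crossed block were chosen after seeing the data.

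Leaving out each library in turn gave 0 to 11 higher and 0 to 8 lower genes between the matrices at day 4, 0 to 23 higher and 0 to 9 lower between the days on the soft matrix, and 1 to 26 higher and 0 to 11 lower on the stiff matrix, with a median of 0.17 to 0.42. For the change between days of the difference between matrices it gave 0 to 4 higher and 0 to 9 lower and a median of -0.12 to 0.14. A lone library was assumed to vary like the other groups. The cause was not tested.

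Single genes changed sign in some settings, in comparisons where they were not called. CENPF on the soft matrix between the days was -0.043 without scaling factors and -0.14 with offsets, and -0.17 to 0.18 with a library left out. With offsets, 9 of the 45 genes changed sign between the days on the soft and 8 on the stiff matrix. Among them, CCNB1 was -0.14 (soft) and -0.062 (stiff) and TOP2A -0.093 and -0.090 between the days, and KIF18A -0.013 and -0.13. With a library left out, the day 4 difference of stiff from soft was -0.017 to 0.71 for BIRC5, -0.23 to 0.42 for CENPF and -0.12 to 0.56 for MKI67, and the change between days on the stiff matrix was -0.52 to 0.13 for CENPF, -0.16 to 0.082 for KIF2C and -0.37 to 0.53 for TOP2A.

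The labels do not say whether the replicate numbers pair the samples, and the main fit did not pair them. The correlations of same-numbered deviations were -0.036 and -0.49 between the matrices at day 2 and day 4. Between the days they were 0.077 and 0.025 on the soft and the stiff matrix. Such correlations over genes cannot decide the pairing with 2 libraries per condition. With the replicate block, 4 genes were higher and 0 lower between the days on the soft matrix (8.93% and 9.09% of all genes). On the stiff matrix 9 were higher and 1 lower (8.38% and 9.07%). Neither the block nor the crossed numbers called a gene between the matrices. The separate fit gives no value for the change between days of the difference between matrices.

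With 2 libraries per condition and 1 cell line, small differences are not detectable, and the precision at day 4 on the stiff matrix was limited by the distance between its replicates.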
